A study of Homo sapiens with 2 samples.

Results

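The nuclear receptors are transcription factors that switch genes on or off when a small lipid-soluble ligand, such as a steroid, a retinoid, a bile acid, an oxysterol or a fatty acid, binds inside them. A list of 42 human nuclear receptor genes was followed in SW620, an established human cell line of metastatic colorectal cancer. Of the 42 genes, 36 had a probe set annotated to that symbol alone, among 19775 genes with such a probe set on the array. In SOX2 knockdown cells a short hairpin RNA delivered by lentivirus was directed at SOX2, which encodes a transcription factor of stem cells, and in mock knockdown cells the lentiviral hairpin had no target. Both were grown in RPMI-1640 medium, and the labels do not say how many hairpins or clones were used. Each group held 1 Affymetrix array, which gave no replicates and allowed no test, and this limits the precision of every value. The titles call both samples KO and the source names call them knockdown, and the labels also mention livers of mice lacking ECM1, which no other label of these human samples matches.

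Most receptors that sense dietary lipids work in pairs with a retinoid X receptor (RXR). The peroxisome proliferator-activated receptors (PPARs) bind fatty acids, the liver X receptors (LXRs) bind oxysterols, and the retinoic acid receptors (RARs) bind the oxidised form of vitamin A. Each pair sits on DNA at repeats of a hexamer close to AGGTCA. Steroid receptors bind DNA as pairs of themselves, and several orphan receptors have no agreed ligand. In the intestine, HNF4 receptors, the vitamin D receptor and PPARs take part in absorption and epithelial differentiation.

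For each gene the probe set with the highest mean log2 over both arrays gives the value, and the others served as a check. Intensities of different probe sets are not on one scale, so levels are compared between arrays and not between genes. The median of all intensities, 68.5 or 6.10 on the log2 scale, served as a floor, and a gene entered the counts when at least 1 array reached it. Differences are log2 values, SOX2 knockdown minus mock, and counts and medians use the values as deposited. A difference given as a bound was taken against the floor. Probe sets of 1 gene differed among themselves with an SD of 0.49, which is a spread within this pair of arrays and not between cultures. The median intensity over 54613 probe sets was 68.1 on the SOX2 knockdown array and 69.0 on the mock array. SOX2 itself stood at 20.9 on the SOX2 knockdown array and 2077 on the mock array at its brightest probe set, at least 30.3-fold lower against the floor, and another of its probe sets stood at 120 and 333. Of 10 markers of colorectal epithelium, 10 reached the floor on the SOX2 knockdown array and 8 on the mock array, with summed intensities of 69305 and 50557. Such sums add probe sets that are not on one scale and are led by the brightest. Here these were KRT18, with 21262 against 17410, and KRT8, with 16992 against 10731. Among the 10 markers LGALS4 read 6010 against 39.1, while VIL1 read 867 against 2063. The hepatocyte marker ALB lay under the floor on both arrays, at 19.98 and 21.5, although the sum of 8 hepatocyte markers was 4839 against 836, of which SERPINA1 made up 4301 and 313. The sum of 5 leukocyte markers was 11962 against 368, of which LYZ, also a gene of gut epithelium, made up 11691 and 213, while PTPRC, which marks all leukocytes, stood under the floor at 19.9 and 16.7. Fibroblast markers summed to 513 and 614, and endothelial markers to 298 and 327. The part of these markers in the results below was not tested, and in bulk RNA fewer cells of a type and less RNA per cell cannot be told apart.

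Among the 27 nuclear receptors that reached the floor, 6 passed 2-fold upward on the array of SOX2 knockdown cells and 0 passed it downward. The 6 were PPARG, RXRA, NR1H3, PPARA, NR0B2 and HNF4G. NR3C1 is not among the 27, because its brightest probe set lay just under the floor on both arrays. Its 2 probe sets that reached the floor, both on the mock array alone, differed by -2.47 and -1.60 as deposited. Over all 13609 genes that reached the floor, 8.44% were at least 2-fold higher and 7.29% at least 2-fold lower, whereas 22.2% of the 27 receptors were at least 2-fold higher. The median difference of the 27 was 0.27, against -0.01 over all genes, and 20 of them lay above 0. As deposited, 18 of the 27 differed by less than the SD between probe sets, or 66.7% of them, against 64.7% of all genes. The other 9 were all higher on the SOX2 knockdown array, or 33.3% of the 27, while 17.6% of all genes were higher and 17.7% lower by at least that SD. With 1 array per group these counts describe this pair of arrays and have no replicate check. The receptors and the lists below were chosen with earlier results of these data known. Their shares beside those of all genes are therefore descriptions and not an unselected contrast.

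**Figure D1:**
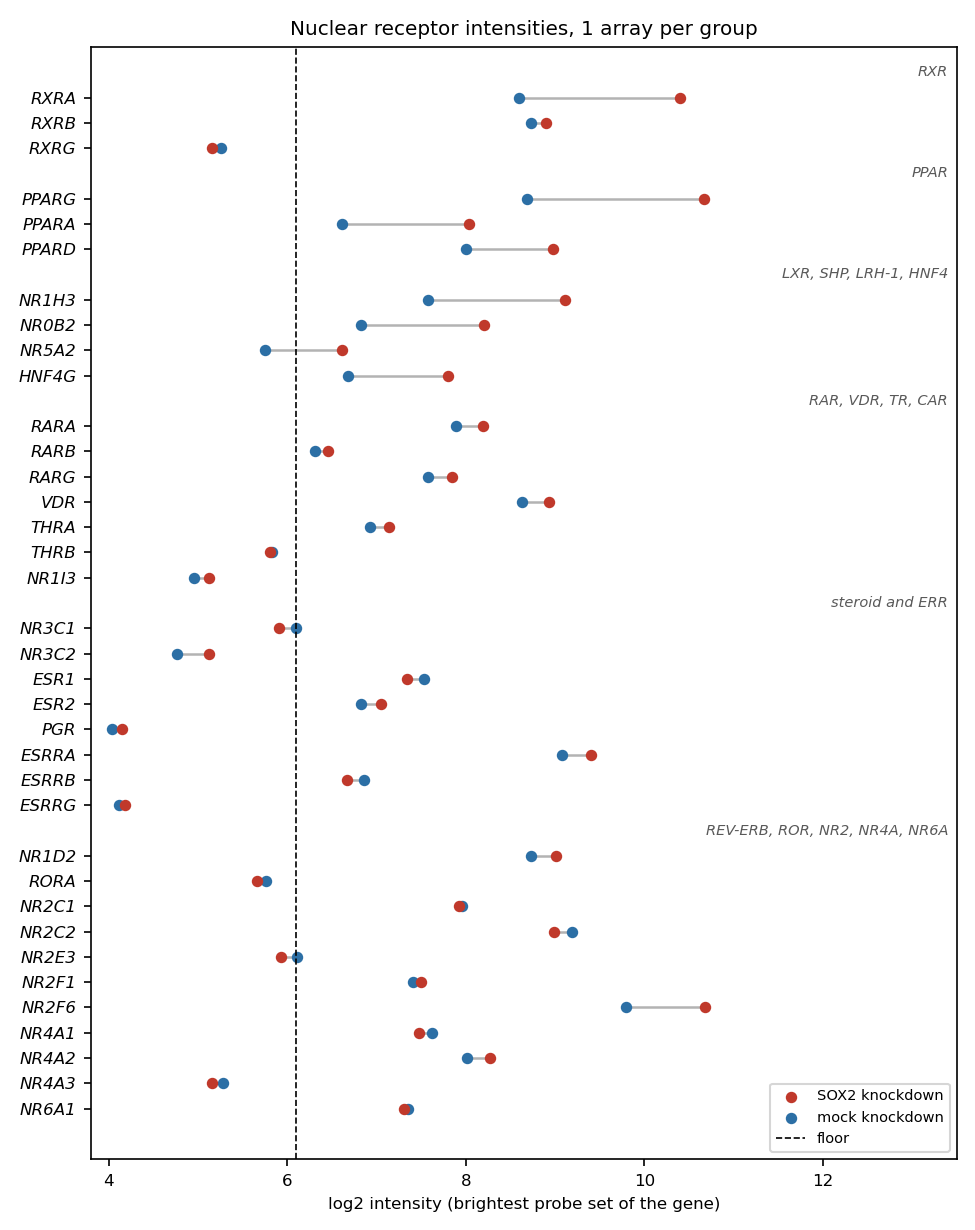
Each row is 1 nuclear receptor gene, with its log2 intensity on the SOX2 knockdown array in red and on the mock knockdown array in blue, and the dashed line marks the floor at 6.10. The wide gaps, with red to the right, belong to RXRA, the PPARs, NR1H3, NR0B2, NR5A2, HNF4G and NR2F6.

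The RXRs are the shared partners of the lipid-sensing receptors. RXRA stood at an intensity of 1352 on the SOX2 knockdown array and 386 on the mock array, a log2 difference of 1.81 or 3.50-fold. The other probe set of RXRA, 202426_s_at, read 126 and 112 and differed by 0.16, so the size of the RXRA difference depended on the probe set. RXRB read 477 and 423, a difference of 0.17, which is smaller than the spread between probe sets. RXRG lay under the floor on both arrays, at 35.7 and 38.2.

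The 3 PPAR genes all had higher values in SOX2 knockdown cells. PPARG, the PPAR of adipocytes and of differentiated colonic epithelium, stood at 1623 on the SOX2 knockdown array and 411 on the mock array. This was a difference of 1.98 or 3.95-fold, the largest among the 27 receptors, and 3.15% of all genes differed by as much or more in that direction. PPARG was read by a single probe set, 208510_s_at, so no other probe set checks it. PPARA, which drives fatty acid oxidation in liver and gut, stood at 262 and 97.8, a difference of 1.42 or 2.68-fold. Of its 9 probe sets 5 reached the floor, all 5 were higher on the SOX2 knockdown array, and their differences as deposited ran from 0.28 to 2.86. In 2 of these 5 the mock value lay under the floor. They were 226978_at, with 231 on the SOX2 knockdown array and 56.4 on the mock array, and 223438_s_at, with 151 and 20.8, so that only bounds hold, 1.75 or more and 1.14 or more. PPARD, the broadly expressed PPAR, stood just under the limit of 2-fold, with 505 and 256, a difference of 0.98 or 1.97-fold. Its other probe sets that reached the floor differed by 0.35 and, at 242218_at, by 1.12 as deposited. The mock value of 242218_at lay under the floor, at 62.0, so only a bound of 0.98 or more holds.

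**Figure D2:**
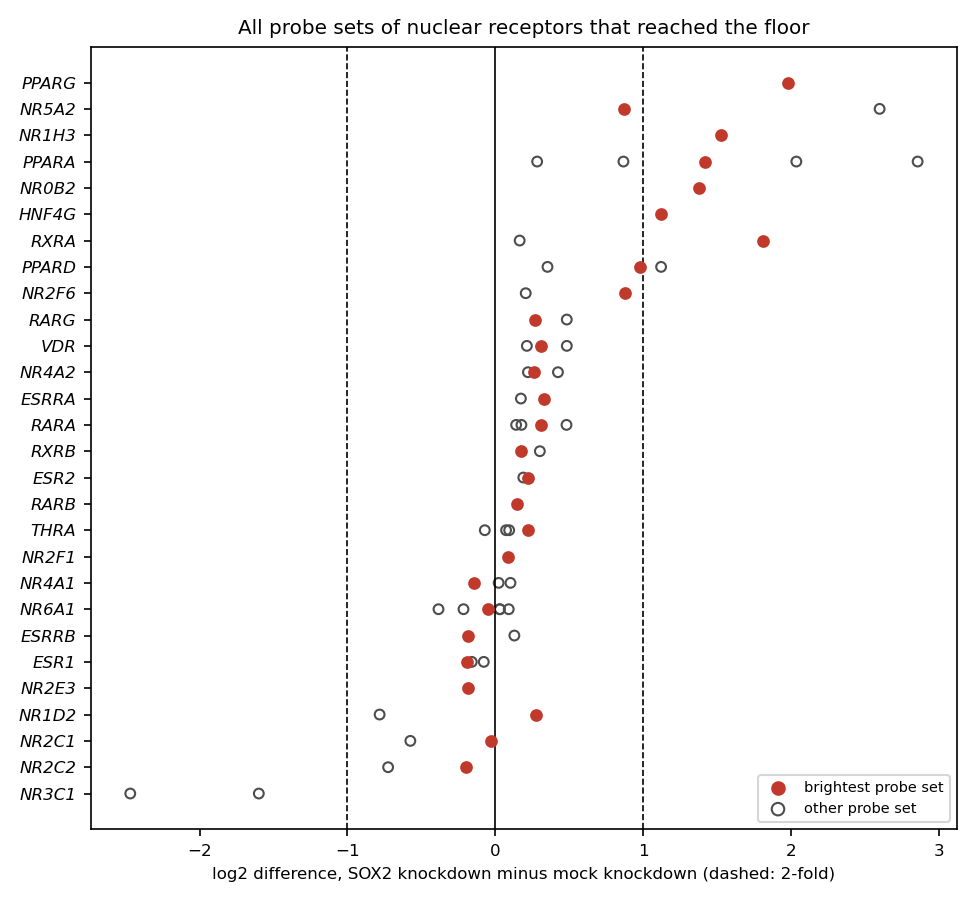
Points are the log2 differences, SOX2 knockdown minus mock knockdown, of all 65 probe sets of nuclear receptors that reached the floor, with the brightest of each gene filled and dashed lines at 2-fold. Of the 65, 10 lie at or beyond 2-fold higher as deposited, 3 of them of PPARA, and the 2 beyond 2-fold lower both belong to NR3C1. Mock values lay under the floor for 226978_at and 223438_s_at of PPARA, 210174_at of NR5A2 and 242218_at of PPARD. Both NR3C1 probe sets lay under it on the SOX2 knockdown array. Shares over all probe sets were not computed, so these counts have no background beside them.

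The receptors of oxysterol and bile acid control that could be read were also higher. NR1H3 encodes LXR alpha, the oxysterol sensor that raises cholesterol efflux. It stood at 552 on the SOX2 knockdown array and 191 on the mock array, a difference of 1.53 or 2.89-fold, on its single probe set. NR0B2 encodes SHP, a receptor that lacks a DNA-binding domain and represses other receptors, among them those that drive bile acid synthesis. It stood at 294 and 113, a difference of 1.38 or 2.59-fold, again on a single probe set. NR5A2 encodes LRH-1, which activates NR0B2 in liver and takes part in renewal of the gut epithelium. Its brightest probe set read 98.2 on the SOX2 knockdown array and 53.8, under the floor, on the mock array, which leaves a bound of 0.52 or more. Its probe set 210174_at read 154 and 25.4, a bound of 1.17 or more, so NR5A2 passed the limit of 2-fold at 1 of its 2 probe sets that reached the floor. HNF4G, the HNF4 receptor found mainly in gut and kidney, stood at 222 and 102, a difference of 1.12 or 2.17-fold. The other probe set of HNF4G lay under the floor on both arrays.

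The promoters of the 3 receptors with the largest differences are shown because they moved the same way and because AGGTCA is the hexamer the receptor pairs themselves bind. Each run is 300 bases, 250 before and 50 after an annotated RefSeq start, on the plus strand of GRCh38.p14 and read 5′ to 3′. Capitals mark AGGTCA, or CATTGT or CTTTGT, the hexamers at the core of SOX sites, each searched on both strands. No overlap occurs between the motifs marked.
PPARG, chr3:12287118-12287417: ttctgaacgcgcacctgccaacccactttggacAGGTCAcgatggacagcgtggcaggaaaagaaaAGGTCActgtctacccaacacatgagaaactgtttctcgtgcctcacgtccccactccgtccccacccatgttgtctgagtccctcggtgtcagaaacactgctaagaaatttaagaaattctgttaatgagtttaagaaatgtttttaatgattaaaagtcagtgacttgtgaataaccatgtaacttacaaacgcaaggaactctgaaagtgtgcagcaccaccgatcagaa
RXRA, chr9:134326205-134326504: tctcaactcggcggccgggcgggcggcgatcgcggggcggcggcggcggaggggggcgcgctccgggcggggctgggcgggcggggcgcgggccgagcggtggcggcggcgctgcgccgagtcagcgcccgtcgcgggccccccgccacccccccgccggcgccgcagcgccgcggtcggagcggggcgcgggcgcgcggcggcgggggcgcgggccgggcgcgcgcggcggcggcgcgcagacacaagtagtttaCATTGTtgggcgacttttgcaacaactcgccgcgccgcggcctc
NR1H3, chr11:47248050-47248349: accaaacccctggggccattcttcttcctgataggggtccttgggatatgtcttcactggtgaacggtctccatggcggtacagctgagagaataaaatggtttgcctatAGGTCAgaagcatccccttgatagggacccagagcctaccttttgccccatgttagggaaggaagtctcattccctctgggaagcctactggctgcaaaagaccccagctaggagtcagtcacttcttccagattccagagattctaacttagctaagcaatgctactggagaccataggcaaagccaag
The PPARG window holds AGGTCA beginning 217 and 184 bases before the start, in the same orientation. The NR1H3 window holds it once, 140 bases before the start, and the RXRA window holds CATTGT just after the start. PPARG had 6 annotated windows, RXRA 2 and NR1H3 4, and the window shown is the first along the chromosome. Of the other PPARG windows 3 held a SOX hexamer, CTTTGT in a pair of overlapping windows and ACAAAG, its reverse complement, in another, and the overlapping pair also held AGGTCA. The other windows of RXRA and NR1H3 held none of these letters. The 2 windows of PPARA and the 1 of PPARD held none of these letters. NR0B2 and HNF4G, also at least 2-fold higher, were not covered by this reading of single windows. Over 90 windows of 37 nuclear receptor genes on the list, 15.6% held AGGTCA, against 13.8% of 35116 RefSeq windows of this length. The SOX hexamers stood in 22.2% of the receptor windows and 24.5% of all windows. These are matches of letters, not measured binding.

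Genes beside the 6 receptors on the chromosome showed smaller median differences. The 20 measured genes nearest to each in RefSeq gene order, 10 on each side, had median differences of -0.11 around PPARG, 0.05 around RXRA, -0.03 around NR1H3 and -0.17 around PPARA. Around NR0B2 the median was 0.23 and 18 of 20 neighbours lay above 0, against 48.9% of all genes that reached the floor. Around HNF4G it was -0.16, with 5 of 20 at least 2-fold lower, against 7.29% of all genes.

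**Figure D3:**
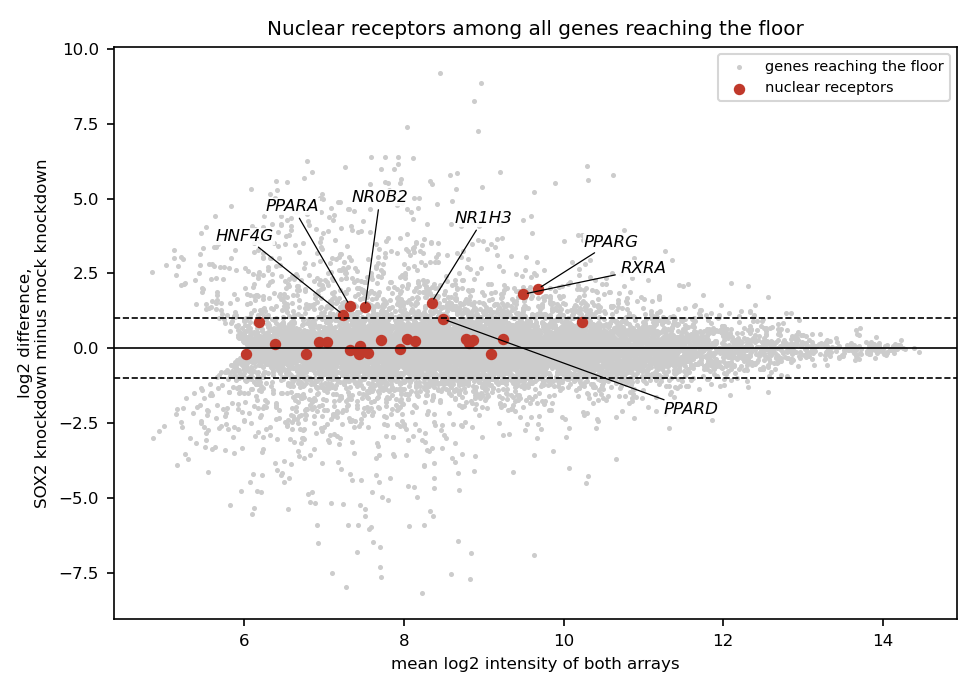
Each grey point is 1 of the 13609 genes that reached the floor, by mean log2 intensity and log2 difference, SOX2 knockdown minus mock knockdown, with the 27 nuclear receptors in red and dashed lines at 2-fold. The 6 receptors above the upper line lie inside the cloud of other genes, and PPARD lies on it.

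The receptors of retinoic acid, vitamin D and thyroid hormone showed small differences. RARA stood at 293 on the SOX2 knockdown array and 237 on the mock array, a difference of 0.31, and all 4 of its probe sets that reached the floor were higher, by 0.14 to 0.48. RARG stood at 229 and 191, a difference of 0.27, and RARB at 87.9 and 79.5, a difference of 0.14. VDR, which controls calcium uptake in the gut, stood at 490 and 396, a difference of 0.31, with 3 probe sets between 0.21 and 0.48. THRA read 141 and 121, a difference of 0.22. Each of these 5 differences is smaller than the SD between probe sets. THRB and NR1I3, which encodes the xenobiotic sensor CAR, lay under the floor on both arrays.

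Of the steroid receptors, NR3C1, the glucocorticoid receptor, depended most on the probe set. Its brightest probe set, 201866_s_at, lay just under the floor on both arrays, at 59.9 and 68.4, so NR3C1 did not enter the counts. The probe sets 211671_s_at and 201865_x_at read 21.6 and 31.3 on the SOX2 knockdown array, against 120 and 95.0 on the mock array. As deposited they differed by -2.47 and -1.60, and against the floor only bounds of -0.81 or lower and -0.47 or lower hold. NR3C2, the mineralocorticoid receptor, and PGR, the progesterone receptor, lay under the floor on both arrays. ESR1, the estrogen receptor alpha, read 162 and 185, a difference of -0.19, and ESR2 read 132 and 113, a difference of 0.22. Among the estrogen-related receptors, orphans that regulate mitochondrial genes, ESRRA read 678 and 540, a difference of 0.33, and ESRRB read 102 and 116, a difference of -0.19. ESRRG lay under the floor on both arrays.

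NR2F6, a COUP-TF relative among the remaining orphan receptors, read 1632 on the SOX2 knockdown array and 890 on the mock array, a difference of 0.87 or 1.83-fold, and its other probe set that reached the floor differed by 0.21. NR2F1, a COUP transcription factor, read 180 and 170, a difference of 0.08. The testicular receptors NR2C1 and NR2C2 differed by -0.03 and -0.20 at their brightest probe sets and by -0.57 and -0.73 at the others that reached the floor. NR1D2, the clock repressor REV-ERB beta, read 514 and 424, a difference of 0.28, while its other probe set differed by -0.78. The immediate early receptors NR4A1 and NR4A2 differed by -0.14 and 0.26. NR6A1, a germ cell receptor, differed by -0.05, with its 6 probe sets that reached the floor between -0.38 and 0.09. NR2E3, known from photoreceptors, reached the floor on the mock array alone, with 60.7 on the SOX2 knockdown array and 69.1 on the mock array.

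In all, 9 receptors did not reach the floor at their brightest probe set, with values between 16.4 and 68.4. Beside NR3C1 they were NR1I3, NR3C2, NR4A3, RXRG, RORA, THRB, ESRRG and PGR, and none of these 8 had any probe set that reached the floor. The other 6 genes of the list, NR1D1, NR1H2, NR1H4, NR1I2, NR2F2 and HNF4A, had no probe set annotated to them alone and were not analysed here.

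Nuclear receptors act through coregulators, proteins that open or close chromatin at their sites. Of 25 listed coregulators 21 reached the floor, 2 passed 2-fold upward in SOX2 knockdown cells and 0 downward, and the median was -0.07. The share of 9.52% upward is near the 8.44% of all genes. NRIP1, a corepressor that estrogen and retinoic acid induce, read 1508 and 620, a difference of 1.28, and its other probe set differed by 1.44. NCOA2, a coactivator of steroid receptors, read 632 and 315, a difference of 1.01, which lies at the limit. LCOR, a corepressor, stood just under it at 0.97. The coactivator PPARGC1A, which works with PPARs and ERRs, lay under the floor on both arrays.

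The genes that take up, carry and oxidise vitamin A went both ways. Of 17 listed genes 13 reached the floor, with a median of 0.32. Of these 13, 6 passed 2-fold upward and 1 downward, or 46.2% and 7.69%, against 8.44% and 7.29% of all genes. Among the 6, ALDH1A1 and RBP4 lay under the floor on the mock array and so entered through the SOX2 knockdown array alone. Among the retinaldehyde dehydrogenases, which make retinoic acid, ALDH1A1 read 1874 and 29.4, a difference of 4.77 or more, and ALDH1A3 read 2931 and 564, a difference of 2.38, while ALDH1A2 lay under the floor on both arrays, at 51.8 and 53.0. DHRS9, a retinol dehydrogenase, differed by 2.40, DHRS3, which turns retinaldehyde back to retinol, by 1.94, and RBP4, the retinol carrier of blood, by 2.40 or more, although its other probe set differed by 0.09. The retinoic acid carrier CRABP2, which delivers its ligand to RARs, read 855 and 210, a difference of 2.03. FABP5, which carries retinoic acid and fatty acids to PPARD, went the other way, with 3449 and 7305, a difference of -1.08. The retinol dehydrogenase RDH10 differed by 0.17 and RBP2, the cellular retinol carrier of enterocytes, by -0.17.

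Among the lists of receptor target genes, that of the RARs had the highest median, 1.98 as deposited and 1.97 when dim values were set to the floor. Of 8 measured RAR targets 5 were at least 2-fold higher, or 62.5%, and 0 lower, against 8.44% and 7.29% of all genes. In 2 of the 5, PLAAT4 and RARRES1, the mock value lay under the floor. Beside DHRS3 and CRABP2 they were PLAAT4, a growth suppressor that interferon also induces, at 4.73 or more, the transglutaminase TGM2 at 4.09, and RARRES1, which was at least 3.99-fold higher. The 4 probe sets of TGM2 ran from -0.02 to 4.09. CYP26A1, the hydroxylase that clears retinoic acid and a standard target of RARs, read 129 and 103, a difference of 0.32. Its relative CYP26B1 and the retinol transporter STRA6 differed by -0.12 and -0.28, and by -0.42 and -0.76 at their other probe sets that reached the floor.

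Targets of the PPARs went both ways. Of 10 measured, 1 passed 2-fold upward and 2 downward, against 8.44% and 7.29% of all genes, and the median was -0.24. PLIN2, which coats lipid droplets, read 288 on the SOX2 knockdown array and 5544 on the mock array, a difference of -4.27. ACADM, an enzyme of fatty acid oxidation, differed by -1.01. PDK4, which spares glucose, went the other way, at 1.62 or more, and entered through the SOX2 knockdown array alone. ANGPTL4, a lipase inhibitor and standard PPAR target, read 180 and 171, a difference of 0.07.

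Of 6 measured LXR targets, 2 passed 2-fold upward and 0 downward, or 33.3% and 0%, against 8.44% and 7.29% of all genes. Their median was 0.27. ABCG1, a cholesterol exporter, read 253 and 63.4, a difference of 1.89 or more. Its mock value lay under the floor, so ABCG1 entered through the SOX2 knockdown array alone. MYLIP, the ligase that removes the LDL receptor, read 552 and 127, a difference of 2.12, and its 5 probe sets that reached the floor ran from 0.30 to 2.14. SREBF1, the lipogenic factor that LXRs induce, differed by 0.25, and ABCA1, the other main cholesterol exporter, lay under the floor on both arrays. Of the FXR targets only FGF19 and FABP6 reached the floor, at -0.93 and 0.12. Of 4 measured PXR and CAR targets, 1 passed the limit upward and 1 downward as deposited, against the same shares of all genes, with a median of -0.22. The drug-metabolising CYP3A5 differed by 3.50 or more and the drug pump ABCB1 by -0.27 or lower. CYP3A5 entered through the SOX2 knockdown array alone and ABCB1 through the mock array alone.

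Lists of the other receptors were mixed. Their counts stand beside 8.44% of all genes at least 2-fold higher and 7.29% at least 2-fold lower. Of 8 measured glucocorticoid receptor targets, 1 was at least 2-fold higher and 1 lower: the kinase SGK1, with 4822 and 129, at 5.22, and the metallothionein MT2A at -2.39. FKBP5, a chaperone and standard glucocorticoid target, differed by 0.78 and TSC22D3 by 0.10. Of 7 measured estrogen receptor targets 3 passed 2-fold upward and 1 downward, namely the carbonic anhydrase CA12 at 4.43, the trefoil peptide TFF1 at 2.69, the cathepsin CTSD at 1.53 and the transcription factor MYB at -1.10. The 7 probe sets of CA12 ran from -0.42 to 5.65. Of 5 HNF4A targets SERPINA1 passed the limit, at 3.78. Of 5 vitamin D targets CD14 did, at 1.19 or more, and it entered through the SOX2 knockdown array alone. CYP24A1, the standard target of VDR, differed by 0.56. TRPV6, on the same list, differed by 0.08 at its brightest probe set and by 1.45 as deposited at its other. Of 5 REV-ERB and ROR targets CLOCK differed by 1.61 and NFIL3 by -1.50, and of 3 thyroid hormone targets 0 passed the limit either way. Over all lists together, 22 of 90 genes were at least 2-fold higher, or 24.4%, and 7 at least 2-fold lower, or 7.78%, against 8.44% and 7.29% of all genes, with a median of 0.15. Of the 22 genes, 8 lay under the floor on the mock array and so entered through the SOX2 knockdown array alone. With both arrays required to reach the floor, 14 of 79 list genes were at least 2-fold higher, against 6.68% of all 12412 genes at that setting. The lists were chosen with earlier results of these data known and share genes, and many of these genes also answer to other factors.

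**Figure D4:**
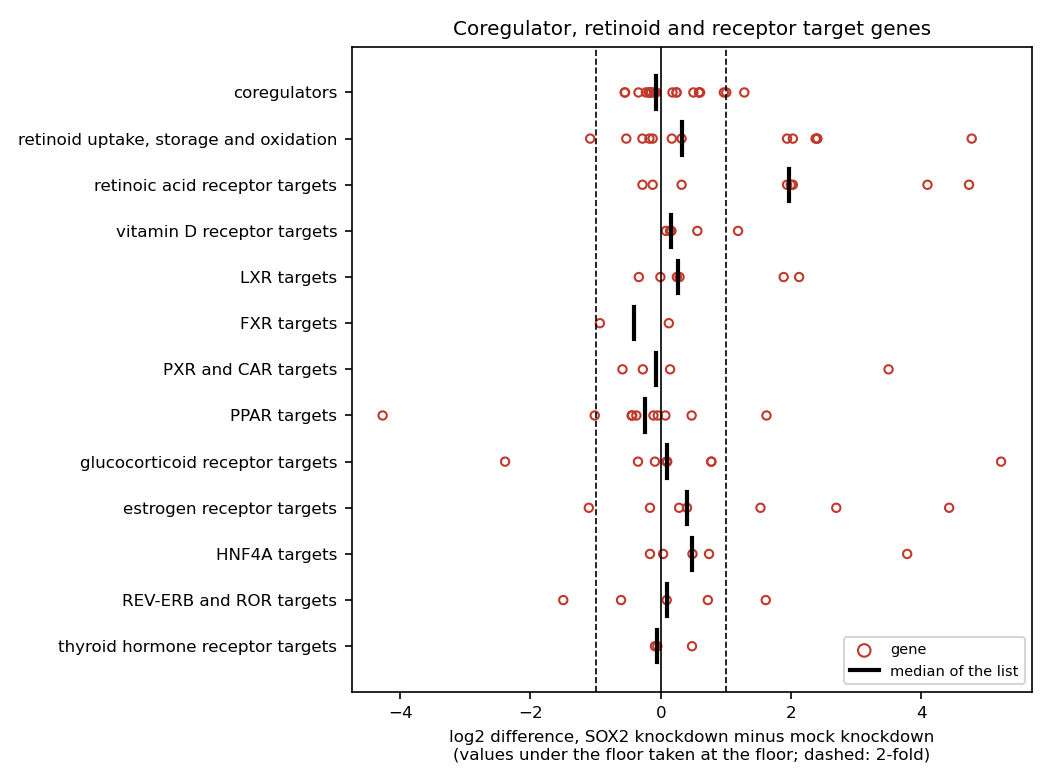
Open circles are the log2 differences, SOX2 knockdown minus mock knockdown, of genes on each list that reached the floor, with dim values set to the floor, and the black bar is the median of the list. The RAR targets have the highest median, 1.97, and PLIN2 among the PPAR targets lies farthest to the left, at -4.27.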

How the data were processed

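The authors deposited 1 intensity per probe set and array on a linear scale, and RMA is the tool that the submitters' processing notes name. Its version and settings and the step back to a linear scale are not stated there. RMA normalizes quantiles between arrays and hides any change in total RNA per cell. A platform annotation gave 1 symbol for 41092 probe sets, several for 1800 and none for 11721, and only the first kind was used; 41037 were found in a RefSeq table of GRCh38.p14, which changed 0 symbols. Log2 was taken of the deposited intensity without a pseudocount. The rule named SOX2, every nuclear receptor of the list, and every gene of the coregulator, retinoid and target lists differing by at least 2-fold; other list genes named, and the probe sets of NR3C1 and NR5A2, were chosen after their values were seen. The receptors and lists were chosen with earlier results of these data known. A difference with 1 value under the floor is a bound. No test was run, since each group held 1 array. Alternatives covered normalization, floor, probe set, pseudocount and limit. Counting was tested on simulated data. Python 3.11.15, numpy 2.4.6, pandas 2.3.3, statsmodels 0.14.6 and matplotlib 3.10.9 were used.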

Additional observations from a re-analysis of the deposited data

How the results depend on the processing

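Of 137 alternative values, 125 kept within the spread between probe sets or within 1.5 times of a count, 12 moved further and 0 changed direction. A count could not be scored as a change of direction. NR0B2, NR1H3, HNF4G and PPARG each had a single probe set that reached the floor, and it did so on both arrays. Other choices of floor or probe set therefore could not move their values, and the tally is no measure of how firm they are. The count of receptors at least 2-fold higher was 6 and stood between 4 and 7 at that limit. Over all genes that share ran from 6.03% with no floor to 11.2% with the floor at the 75th percentile. At a limit of 3-fold the count was 2 (PPARG and RXRA), and no share of all genes was computed there. The count at least 2-fold lower was 0, and 1 (NR3C1) with the median of probe sets or the probe set of smallest difference. At these 2 settings 6.90% and 5.57% of all genes were at least 2-fold lower. HNF4G fell just under the limit with a pseudocount of 32, at 0.92. RXRA was 0.99 with the median of its probe sets and 0.16 with the smallest, and PPARA 0.28 with the smallest. With probe sets that may match several transcripts left out, PPARG and RXRA could not be read. The count of list genes at least 2-fold higher was 14 of 79, against 22 of 90, when the floor had to be reached on both arrays. Over all genes the share at that setting was 6.68%, against 8.44%. The count of list genes lower was 3, against 7, at 3-fold, again without a share of all genes at that limit. The SOX2 difference was -6.64 as deposited, -4.92 with values raised to the floor, -5.32 with a pseudocount of 32, -4.05 with the median of its probe sets and -1.47 with the smallest. No paired analysis was possible because each group held 1 array. Detection over background was not given, which limits statements on dim probe sets.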
